A study of Mus musculus with 8 samples.

Results

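The 33 genes described here mark neural stem cells and the neurons that arise from them, in RNA sequencing of mouse hippocampus. They were taken by name and fall into 4 roles: 10 genes of radial glia, 9 transcription factors that pattern the forebrain, 6 genes of intermediate progenitors and 8 factors of neuronal differentiation. All 33 were found among the 24421 genes of each count table, and all 33 passed the filter on low counts, which left 15999 genes for testing.

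The series asked how restricted growth before birth affects the hippocampus of the offspring. Pregnant C57BL/6J dams, allocated at random, received intraperitoneal dexamethasone, a synthetic glucocorticoid, at 1 mg/kg per day for 5 days from 14.5 days post coitum, or the same volume of saline. Their offspring, labelled male and wildtype, form the groups IUGR (intrauterine growth retardation, dexamethasone) and NS (normal saline), sampled at week 8 and at postnatal day 3. The 4 groups are thus IUGR at week 8, NS at week 8, IUGR at postnatal day 3 and NS at postnatal day 3, with 2 libraries each. In this model the hormone is given to the dam, so dam and fetus are both exposed, and every group shares the injection itself. The labels do not say whether the 2 libraries of a group came from separate animals or litters, so each p-value measures the spread between these libraries only.

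Radial glia are the stem cells of the developing forebrain. They divide to give intermediate progenitors, which divide again and become excitatory neurons, and a chain of transcription factors accompanies these steps: PAX6 and SOX2 in stem cells, then neurogenin-2, TBR2 (the product of Eomes) and INSM1 in progenitors, then NeuroD proteins, TBR1, PROX1 and BCL11 proteins in young neurons. In the hippocampus the dentate gyrus is built largely after birth, and a small pool of radial glia-like cells goes on making granule neurons in the adult. Astrocytes share many of the genes of radial glia.

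Total counts ran from 13030277 to 18993050 per library, so 3 reads, the limit that a count of 0 allows, correspond to 0.158 to 0.23 CPM (reads of a gene per 1000000 counted reads of the library). Such limits cover counting error only. Both replicate 2 libraries of postnatal day 3 went against their male label: they held 5130 (IUGR) and 4998 (NS) reads of Xist and 34 and 10 of the Y-linked gene Ddx3y, against 81 and 4 reads of Xist and 2009 and 1331 of Ddx3y in the replicate 1 libraries. At week 8 the replicate number split the libraries of both groups: the small RNA gene Rpph1 took 1.37e-05% (IUGR) and 0% (NS) of counts in replicate 2, against 6.49% (IUGR) and 7.69% (NS) in replicate 1. The 6 neuron markers summed to 10101 (IUGR) and 10496 (NS) CPM in replicate 2 of week 8, and to 3852 and 3426 CPM in replicate 1. These markers and the 10 hippocampus markers were detected in all libraries. The hippocampus list, with sums between 435.7 and 928.2 CPM, includes the members Neurod6 and Prox1. At postnatal day 3 Neurod6 alone gave 363.8 to 543.9 CPM, of sums of 576.7 to 769.1 CPM. Spink8 and Lct of that list lay at 0.457 to 0.963 CPM at that age. Counts of called members are given with and without the replicate 2 libraries of postnatal day 3, and with either replicate number of week 8 alone. Calls and fold changes of the other gene lists come from the fit of all 8 libraries only.

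Promoter sequences are shown for 5 of the genes because the results turn on them: Fabp7 and Sox11 were among the members that fell furthest with age, and the values of 3 of the 4 NeuroD genes diverged. Each window runs from 250 bases before to 50 bases after the RefSeq start site (GRCm38.p6), and capitals mark the hexamers CAGATG and CATATG, on either strand, which belong to the E-box sequences that neurogenin and NeuroD proteins are known to bind. The windows lie at chr10:57784673-57784972 (Fabp7, plus strand), chr12:27342669-27342968 (Sox11, minus strand), chr2:79456587-79456886 (Neurod1, minus strand), chr11:98329596-98329895 (Neurod2, minus strand) and chr6:55681214-55681513 (Neurod6, minus strand).
Fabp7: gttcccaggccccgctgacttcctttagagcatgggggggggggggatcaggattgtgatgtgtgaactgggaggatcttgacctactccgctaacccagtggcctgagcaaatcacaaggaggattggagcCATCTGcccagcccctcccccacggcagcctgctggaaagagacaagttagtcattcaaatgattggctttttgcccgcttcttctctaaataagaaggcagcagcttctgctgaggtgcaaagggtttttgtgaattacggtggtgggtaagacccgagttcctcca
Sox11: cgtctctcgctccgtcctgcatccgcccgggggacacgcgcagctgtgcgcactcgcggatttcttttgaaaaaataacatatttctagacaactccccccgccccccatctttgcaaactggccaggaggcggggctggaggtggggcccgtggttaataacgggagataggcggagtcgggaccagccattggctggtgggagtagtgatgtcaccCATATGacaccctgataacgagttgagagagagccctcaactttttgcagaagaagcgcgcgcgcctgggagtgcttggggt
Neurod1: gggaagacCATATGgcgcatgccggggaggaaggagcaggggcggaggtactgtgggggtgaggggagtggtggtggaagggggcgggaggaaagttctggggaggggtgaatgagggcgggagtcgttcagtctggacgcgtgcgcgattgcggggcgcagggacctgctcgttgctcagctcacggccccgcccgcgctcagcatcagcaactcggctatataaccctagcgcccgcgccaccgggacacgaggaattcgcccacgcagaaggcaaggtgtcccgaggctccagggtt
Neurod2: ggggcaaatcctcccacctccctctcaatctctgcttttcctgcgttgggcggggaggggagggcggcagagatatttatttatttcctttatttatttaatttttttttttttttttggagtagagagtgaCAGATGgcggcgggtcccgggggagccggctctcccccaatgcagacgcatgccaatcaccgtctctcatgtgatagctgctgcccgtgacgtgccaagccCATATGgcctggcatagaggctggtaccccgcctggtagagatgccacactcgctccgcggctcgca
Neurod6: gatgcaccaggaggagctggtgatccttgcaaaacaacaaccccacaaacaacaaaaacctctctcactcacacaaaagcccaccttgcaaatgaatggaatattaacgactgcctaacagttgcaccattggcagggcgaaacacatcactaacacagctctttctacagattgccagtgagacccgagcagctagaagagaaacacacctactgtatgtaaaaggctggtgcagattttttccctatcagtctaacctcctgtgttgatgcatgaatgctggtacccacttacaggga

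Neurod2 carried both hexamers, CAGATG at position -118 and CATATG at -17, counted from the start site at 0. Sox11 carried CATATG at -32 and Neurod1 at -242. These positions hold for the RefSeq start sites, and starts in the GENCODE annotation can differ. That of Sox11 (27342574, minus strand) lies downstream of the whole window shown. Fabp7 carried the reverse complement CATCTG at -118, and neither hexamer occurred in the Neurod6 window. Among the 29 members with a RefSeq window, 3 held CATATG (10.3%, Neurod1, Neurod2 and Sox11), against 3.91% of 27018 windows searched, and 4 held CAGATG (13.8%, Prox1, Fabp7, Neurod2 and Gli3), against 17.2%. CATATG reads the same on both strands, and the hexamers do not overlap in these windows. Members' windows held a median of 18 CpG dinucleotides (range 2 to 39), close to the median of 17 in windows of genes with a count here, and above the 7 over all windows. Such matches describe the letters of the window and say nothing of binding.

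The comparison of week 8 with postnatal day 3 asked how these genes differ between the adult and the newborn hippocampus. In IUGR, 9 of the 33 members (27.3%) were lower at week 8, against 7.48% of all genes called lower. In NS, 8 of the 33 (24.2%) were lower, against 6.44% of all genes, and all 8 were among the 9 of IUGR. No member was called higher, against 9.34% of all genes in IUGR and 7.7% in NS. The members called lower are Nes, Vim and Fabp7 of radial glia, Tfap2c, Igfbpl1, Neurod6, Sox4 and Sox11, joined by Eomes in IUGR. Calls rest on edgeR's quasi-likelihood test, fitted to the 8 libraries together, with Benjamini-Hochberg adjustment over 15999 genes and an adjusted p under 0.05. The median log2 fold change of the members was -0.67 in IUGR and -0.42 in NS, against 0.02 and 0.04 over all genes tested. In bulk tissue, fewer cells of a type and less RNA per cell cannot be told apart. The days of preparation are not given, so age and any difference in preparation between the 2 ages cannot be told apart either.

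**Figure D1:**
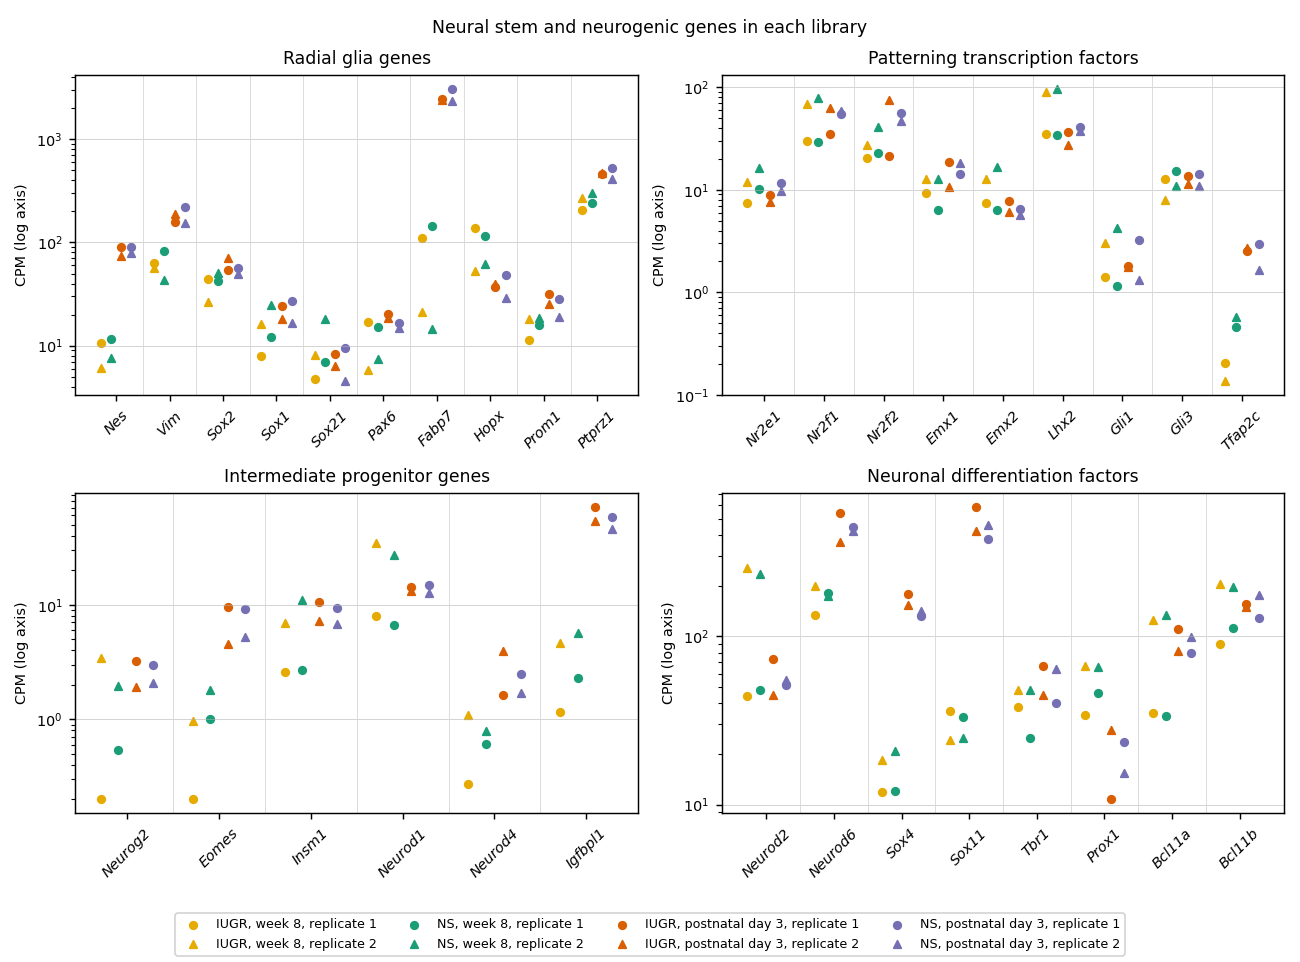
CPM (log axis) of each of the 33 genes in each of the 8 libraries, in 4 panels by role. Colours mark group and age, circles replicate 1 and triangles replicate 2; Fabp7, Sox11 and Sox4 lie far lower at week 8 than at postnatal day 3, and at week 8 triangles and circles of genes such as Neurod2 and Neurod1 stand apart in both IUGR and NS.

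Among radial glia genes, the largest fall was in Fabp7, the brain fatty acid binding protein of radial glia and immature astrocytes (chromosome 10, 57784881 to 57788450, plus strand, GRCm38). Fabp7 stood at 110.5 and 21.0 CPM in IUGR and 144.7 and 14.5 CPM in NS at week 8 (replicates 1 and 2), against 2438 and 2425 CPM in IUGR and 3061 and 2324 CPM in NS at postnatal day 3. The ages did not overlap, but within week 8 replicate 1 was far above replicate 2 in both groups. The log2 fold change was -5.10 ± 1.3 in IUGR (SE, adjusted p = 0.0388) and -5.06 ± 1.3 in NS (adjusted p = 0.0439). The SE is the widest of any member, and with the week 8 libraries of a single replicate number the fall in NS was -7.50 (replicate 2) or -4.20 (replicate 1).

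Nes, which encodes the intermediate filament nestin of neural stem cells (chromosome 3, 87971078 to 87980451, plus strand), stood at 10.7 and 6.03 CPM in IUGR and 11.5 and 7.58 CPM in NS at week 8. At postnatal day 3 Nes stood at 91.3 and 73.9 CPM in IUGR and 90.5 and 79.4 CPM in NS. The mean was 9.88-fold lower at week 8 in IUGR and 8.90-fold lower in NS (log2 fold changes -3.20 ± 0.36 and -3.13 ± 0.36, adjusted p = 0.00521 and 0.00661). Vim, the gene of vimentin, an intermediate filament of radial glia and also of vessels, meninges and reactive astrocytes, fell less. Vim averaged 60.0 ± 4.23 CPM in IUGR and 63.0 ± 27.5 CPM in NS at week 8, against 174.8 ± 21.9 CPM in IUGR and 187.2 ± 45.1 CPM in NS at postnatal day 3 (SD, n = 2 each). The adjusted p of Vim was 0.0353 in IUGR and 0.0323 in NS.

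The other radial glia genes were not called with age. Ptprz1, a receptor phosphatase of radial glia and oligodendrocyte precursors, stood at 207.7 and 267.0 CPM in IUGR and 240.4 and 298.4 CPM in NS at week 8, against 461.8 and 475.2 CPM in IUGR and 526.3 and 415.4 CPM in NS at postnatal day 3. All 4 week 8 libraries were below all 4 of postnatal day 3, yet the adjusted p was 0.0604 in IUGR and 0.0889 in NS. Prom1, the gene of the membrane glycoprotein prominin-1, was likewise lower in all 4 week 8 libraries (11.4 to 18.6 CPM, against 18.9 to 32.0 CPM at postnatal day 3), with log2 fold changes of -0.85 in IUGR and -0.42 in NS. Hopx, a homeodomain protein of quiescent neural stem cells and also of astrocytes, lay the other way: 138.6 and 53.5 CPM in IUGR and 115.7 and 61.7 CPM in NS at week 8, against 37.2 and 39.5 CPM in IUGR and 48.5 and 28.9 CPM in NS at postnatal day 3. All week 8 values of Hopx exceeded all those of postnatal day 3, with log2 fold changes of 1.43 in IUGR (adjusted p = 0.108) and 1.22 in NS (adjusted p = 0.162). Part of the exons of Hopx (27.2%) overlaps the antisense gene Hopxos, and the strand setting of the counting is not given in the sources used here.

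Sox2 and Sox1, which maintain neural progenitors, their relative Sox21 and Pax6 spanned overlapping ranges at both ages. Sox2 stood between 26.3 and 50.3 CPM at week 8 and between 49.3 and 71.2 CPM at postnatal day 3. Its log2 fold change was -0.72 ± 0.30 in IUGR and -0.16 ± 0.30 in NS. Sox1 ranged from 7.98 to 24.6 CPM at week 8 and from 16.6 to 27.4 CPM at postnatal day 3, Sox21 from 4.73 to 18.1 CPM at week 8 and from 4.57 to 9.42 CPM at postnatal day 3, and Pax6 from 5.83 to 16.9 CPM at week 8 and from 15.0 to 20.4 CPM at postnatal day 3. At week 8 Sox1 and Sox21 were higher in replicate 2 of each group while Pax6 was higher in replicate 1. Pax6 in replicate 2 (5.83 and 7.37 CPM in IUGR and NS) lay below every postnatal day 3 library. In replicate 1 (16.9 and 15.0 CPM in IUGR and NS) Pax6 lay within the postnatal day 3 range. None of the 4 genes was called with all 8 libraries.

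Among the 9 patterning factors, Tfap2c, which encodes AP-2 gamma, a factor of basal progenitors (chromosome 2, 172549593 to 172558622, plus strand), was called in both groups. Tfap2c stood at 0.203 and 0.137 CPM in IUGR and 0.460 and 0.579 CPM in NS at week 8, against 2.55 and 2.70 CPM in IUGR and 2.96 and 1.66 CPM in NS at postnatal day 3. The week 8 values of IUGR rest on 3 and 2 reads. Summed over libraries, week 8 held 5 reads in IUGR against 94 at postnatal day 3, a ratio of 0.0648 (95% exact interval 0.0206 to 0.157, counting error only). In NS week 8 held 17 reads of Tfap2c against 72 at postnatal day 3, a ratio of 0.236 (0.131 to 0.405). Adjusted p was 0.0111 in IUGR and 0.0443 in NS, and the NS call was kept in only 8 of 21 alternatives.

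The remaining 8 patterning factors kept levels of the same order at both ages. Lhx2, a LIM-homeodomain selector of cortex and hippocampus, averaged 62.6 ± 39.1 CPM in IUGR and 65.2 ± 43.6 CPM in NS at week 8, against 32.2 ± 6.53 CPM in IUGR and 39.3 ± 2.07 CPM in NS at postnatal day 3 (SD, n = 2 each). The wide SD of week 8 comes from replicate 2, with 90.2 and 96.0 CPM in IUGR and NS, against 35.0 and 34.4 CPM in replicate 1. Emx2, needed for the formation of the hippocampus, rested between 6.37 and 16.6 CPM at week 8 and between 5.65 and 7.77 CPM at postnatal day 3, while its paralogue Emx1 spanned 6.37 to 12.7 CPM at week 8 and 10.7 to 18.5 CPM at postnatal day 3. Nr2e1, the orphan receptor TLX that maintains adult neural stem cells, spanned 7.37 to 16.3 CPM at week 8 and 7.55 to 11.6 CPM at postnatal day 3. Of the COUP-TF genes, Nr2f1 had log2 fold changes of 0.13 in IUGR and -0.04 in NS, and Nr2f2 of -0.92 and -0.67, with SEs of 0.58 each. Of the effectors of Hedgehog signalling, Gli3 had -0.17 in IUGR and 0.08 in NS, and Gli1 0.41 in IUGR and 0.29 in NS at week 8 levels of 1.15 to 4.21 CPM.

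Of the 6 intermediate progenitor genes, Igfbpl1, a secreted protein related to IGF-binding proteins and a marker of newborn neurons (chromosome 4, 45809468 to 45826923, minus strand), fell in both groups. Igfbpl1 stood at 1.15 and 4.66 CPM in IUGR and 2.30 and 5.63 CPM in NS at week 8, against 71.0 and 54.1 CPM in IUGR and 57.8 and 45.3 CPM in NS at postnatal day 3. The log2 fold change was -4.32 ± 0.73 in IUGR (adjusted p = 0.0138) and -3.65 ± 0.70 in NS (adjusted p = 0.0221). Eomes, the gene of the T-box factor that defines these progenitors (chromosome 9, 118478212 to 118486132, plus strand), stood at 0.203 and 0.960 CPM in IUGR and 0.998 and 1.79 CPM in NS at week 8, against 9.47 and 4.52 CPM in IUGR and 9.22 and 5.20 CPM in NS at postnatal day 3. All week 8 libraries were below all postnatal day 3 libraries. The call was made in IUGR (log2 fold change -3.47 ± 0.80, adjusted p = 0.0313) and missed in NS (-2.32 ± 0.74, adjusted p = 0.0835), and the difference between these 2 changes was -1.15 ± 1.04 (adjusted p = 1). The ratio of summed Eomes reads, week 8 over postnatal day 3, was 0.0832 in IUGR (17 and 249 reads, 95% exact interval 0.0477 to 0.136) and 0.209 in NS (47 and 225 reads, 0.149 to 0.287), intervals for counting error only.

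Neurog2, Insm1, Neurod1 and Neurod4 were not called with age. Neurog2, a proneural factor, stood at 0.203 and 3.43 CPM in IUGR and 0.537 and 1.95 CPM in NS at week 8, against 1.93 to 3.23 CPM at postnatal day 3. The lowest of these values is 3 reads, and at week 8 replicate 2 lay far above replicate 1 in both groups, in IUGR above all libraries of postnatal day 3 and in NS within their range. Insm1, a zinc finger factor of progenitors and of neuroendocrine cells, stood at 2.57 and 6.92 CPM in IUGR and 2.69 and 11.0 CPM in NS at week 8, against 6.85 to 10.6 CPM at postnatal day 3. Neurod4 stood between 0.270 and 1.10 CPM in all week 8 libraries, below the 1.64 to 3.91 CPM of postnatal day 3, with log2 fold changes of -1.90 in IUGR (adjusted p = 0.131) and -1.53 in NS (adjusted p = 0.213).

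In the group of neuronal differentiation factors, the SOXC pair Sox4 and Sox11, which switch on neuronal genes in immature neurons, fell together. Sox11 (chromosome 12, 27334264 to 27342574, minus strand) stood at 35.8 and 24.3 CPM in IUGR and 33.0 and 24.8 CPM in NS at week 8, against 586.3 and 423.7 CPM in IUGR and 378.4 and 456.6 CPM in NS at postnatal day 3. The mean of Sox11 was 16.8-fold lower at week 8 in IUGR and 14.4-fold lower in NS, with adjusted p of 0.00288 and 0.00333. This call was the steadiest of the members, kept in 20 of 21 alternatives in each group. Sox4 (chromosome 13, 28948919 to 28953713, minus strand) stood at 11.8 and 18.5 CPM in IUGR and 12 and 21.0 CPM in NS at week 8, against 178.5 and 153.5 CPM in IUGR and 132.1 and 142.3 CPM in NS at postnatal day 3. Its log2 fold change was -3.35 ± 0.37 in IUGR (adjusted p = 0.00493) and -3.02 ± 0.36 in NS (adjusted p = 0.00709). An antisense gene, Gm26735, overlaps 54.6% of the exon bases of Sox4.

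The NeuroD genes gave unlike values. Neurod6, a factor of pyramidal neurons (chromosome 6, 55677822 to 55681263, minus strand), stood at 133.1 and 198.2 CPM in IUGR and 180.1 and 173.5 CPM in NS at week 8, against 543.9 and 363.8 CPM in IUGR and 444.9 and 420.2 CPM in NS at postnatal day 3. All 4 values were lower at week 8, with log2 fold changes of -1.35 ± 0.30 in IUGR (adjusted p = 0.0287) and -1.3 ± 0.30 in NS (adjusted p = 0.0389). Neurod2, which acts in maturing and adult excitatory neurons (chromosome 11, 98325415 to 98329648, minus strand), stood at 43.9 and 256.3 CPM in IUGR and 47.7 and 235.1 CPM in NS at week 8, against 73.2 and 44.5 CPM in IUGR and 51.0 and 54.9 CPM in NS at postnatal day 3. The 2 replicate 2 libraries were far above every other library and the 2 replicate 1 libraries lay at the low end. Neurod2 had log2 fold changes of 1.46 ± 0.95 in IUGR (adjusted p = 0.323) and 1.45 ± 0.95 in NS (adjusted p = 0.334). Neurod1, which acts in newborn granule neurons (chromosome 2, 79452521 to 79456751, minus strand), split in the same way, with 7.91 and 34.8 CPM in IUGR and 6.68 and 27.4 CPM in NS at week 8, against 12.7 to 14.7 CPM at postnatal day 3. The gene Cerkl shares 7.37% of the exon bases of Neurod1 on the same strand.

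Prox1, the homeobox factor of dentate granule neurons, stood at 34.1 and 66.6 CPM in IUGR and 46.1 and 66.1 CPM in NS at week 8, against 10.8 and 27.6 CPM in IUGR and 23.4 and 15.3 CPM in NS at postnatal day 3. The ages did not overlap, but the adjusted p was 0.102 in IUGR and 0.1 in NS (log2 fold changes 1.50 and 1.57). Tbr1, a factor of early-born glutamatergic neurons, and the zinc finger genes Bcl11a and Bcl11b, also known as Ctip1 and Ctip2, had fold changes near 0: -0.28 and -0.48 on the log2 scale for Tbr1 in IUGR and NS, -0.16 in IUGR and -0.06 in NS for Bcl11a, and 0.06 in IUGR and 0.05 in NS for Bcl11b. Bcl11a nonetheless stood at 34.8 and 124.7 CPM in IUGR and 33.5 and 134.2 CPM in NS at week 8, either side of the 79.7 to 109.9 CPM of postnatal day 3.

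**Figure D2:**
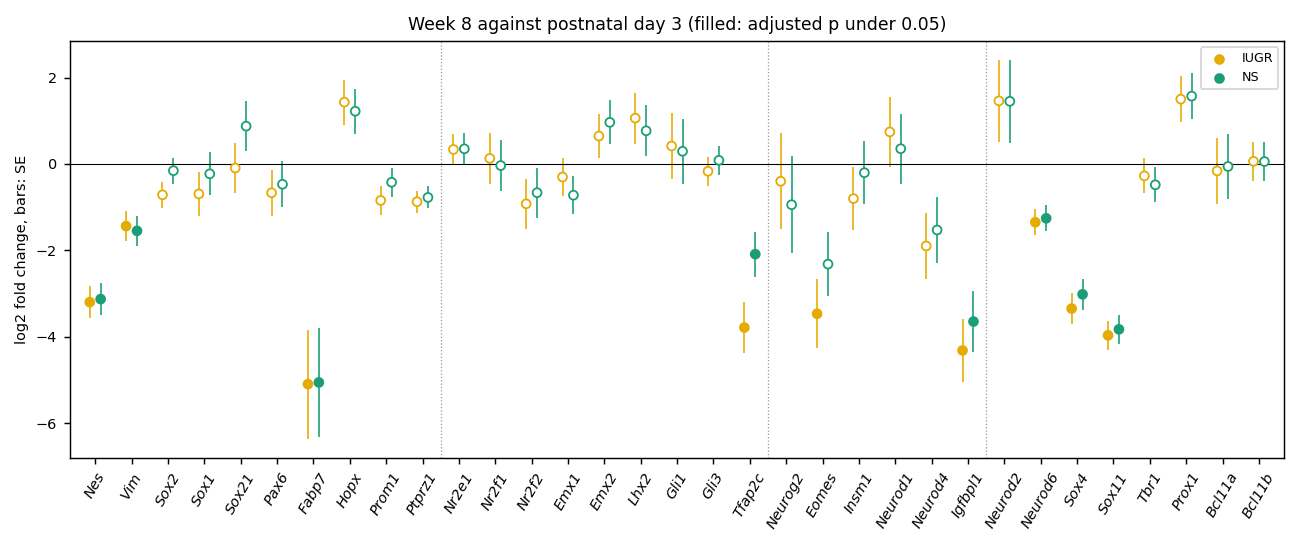
Log2 fold change of week 8 over postnatal day 3 for the 33 genes in IUGR and NS, with bars of 1 SE, filled where the adjusted p was under 0.05, and dotted lines between the 4 roles. The filled points all lie below 0, at Nes, Vim, Fabp7, Tfap2c, Igfbpl1, Neurod6, Sox4 and Sox11 in both groups and at Eomes in IUGR.

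Across all 4 libraries of each age, 12 of 33 members (36.4%) had every week 8 value below every postnatal day 3 value, against 26% of all genes, and 2 (Hopx and Prox1, 6.06%) had every week 8 value above, against 21.1%. Counts of calls changed when single libraries were left out. The single omissions listed here lowered them most, and the others lowered them less or, in IUGR, raised them. The spread is fitted to all libraries of a fit together, so the counts mix changes in spread with changes in the members' values. Over the 21 alternatives the fold changes of all called members stayed below 0. In NS they ran from -4.04 to -3.64 for Sox11, -3.46 to -2.86 for Nes and -7.5 to -4.2 for Fabp7 (log2 scale). Fits of each treatment alone left 7 members in IUGR (9.75% of all genes called) and 3 in NS (2%). In IUGR, where 9 were called, leaving out IUGR replicate 1 of postnatal day 3 left 1 member called, and leaving out IUGR replicate 2 of postnatal day 3 left 3. Leaving out NS replicate 1 or NS replicate 2 of postnatal day 3, or IUGR replicate 2 of week 8, left 5 each. In NS, where 8 were called, leaving out NS replicate 1 or NS replicate 2 of postnatal day 3 left 1 each, IUGR replicate 1 or IUGR replicate 2 of postnatal day 3 left 3 each, and NS replicate 2 of week 8 left 4. Without both replicate 2 libraries of postnatal day 3, those that went against their male label, edgeR called 0 members and 0 genes in both groups, with 10 members in IUGR and 9 in NS at an unadjusted p under 0.05. In that fit each group of postnatal day 3 has 1 library and the spread comes from the week 8 pairs, which varied more, so the count says little of the 2 omitted libraries. The median log2 fold change over the members was then -0.66 in IUGR and -0.55 in NS.

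Other genes of the same steps were read beside the members. Of 20 proliferation genes, 17 were lower at week 8 in each of IUGR and NS and 0 were higher. Mki67, the gene of the Ki-67 antigen of dividing cells, stood at 5.00 and 3.98 CPM in IUGR and 6.22 and 4.69 CPM in NS at week 8, against 59.8 and 44.3 CPM in IUGR and 64.9 and 46.7 CPM in NS at postnatal day 3 (adjusted p = 0.0032 in IUGR and 0.00387 in NS). Top2a, a topoisomerase of dividing cells, had log2 fold changes of -4.78 in IUGR and -4.58 in NS (adjusted p = 0.00779 and 0.00929). The smallest p-values were those of Rrm2, a subunit of ribonucleotide reductase (-4.05 in IUGR and -3.55 in NS), and of the mitotic kinase genes Cdk1 (-5.63 in IUGR and -4.85 in NS) and Aurkb (-3.69 in IUGR and -4.09 in NS). Of 29 further genes of intermediate progenitors and immature neurons tested, 10 were lower in each group, and 2 in IUGR and 1 in NS higher. The lower ones with the smallest p were Dcx, Dpysl3 (log2 fold change -5.13 in IUGR and -5.06 in NS) and Mex3a (-4.60 in IUGR and -4.25 in NS). Dcx, the gene of the microtubule protein doublecortin of migrating neurons, stood at 32.7 and 20.2 CPM in IUGR and 23.2 and 22.1 CPM in NS at week 8, against 1243 and 1023 CPM in IUGR and 923.2 and 1028 CPM in NS at postnatal day 3. Its log2 fold change was -5.32 in IUGR and -5.40 in NS. Trnp1, a nuclear factor of neural progenitors, rose in both groups, by 2.36 in IUGR and 2.57 in NS on the log2 scale. Gadd45g, a stress and cell cycle gene, rose in IUGR (1.64) and had 0.91 in NS (adjusted p = 0.0965).

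Among 29 further genes of radial glia tested, 7 were higher and 3 lower at week 8 in IUGR, and 6 were higher and 3 lower in NS. Those higher with the smallest p, which adult astrocytes express too, were Gpr37l1 (log2 fold change 3.78 in IUGR and 3.77 in NS), the glutamate transporter gene Slc1a2 (3.38 in IUGR and 3.24 in NS), Gfap (1.77 in IUGR and 1.36 in NS) and Thrsp (1.83 in IUGR and 2.24 in NS). Those lower in both groups were Tnc (-3.79 in IUGR and -3.91 in NS), Dach1 (-2.10 in IUGR and -1.88 in NS) and Ednrb (-1.04 in IUGR and -1.13 in NS). Of 10 astrocyte markers, 8 were higher at week 8 in IUGR and 6 in NS. The summed level of astrocyte markers was 5414 to 5575 CPM in IUGR and 5622 to 5898 CPM in NS at week 8, against 964.0 to 1040 CPM in IUGR and 1055 to 1344 CPM in NS at postnatal day 3, with no marker at 0. The 8 myelin markers were all higher at week 8 in both groups, at sums of 4182 to 5537 CPM in IUGR and 4999 to 5446 CPM in NS, against 63.9 to 76.2 CPM in IUGR and 91.3 CPM in both NS libraries at postnatal day 3. The neuron markers, summing to 769.6 to 961.7 CPM in all postnatal day 3 libraries, had 4 of 6 genes called higher in each group. The part of these cell types in the falls of the members was not tested. Of 25 further transcription factors of projection neurons, 3 were higher and 2 lower in each group. The higher ones were Bhlhe40 (log2 fold change 2.71 in IUGR and 3.06 in NS), Klf9 (2.87 in IUGR and 2.57 in NS) and Etv1 (1.31 in IUGR and 1.38 in NS), and the lower ones Klf7 (-2.37 in IUGR and -2.38 in NS) and Cux1 (-1.24 in IUGR and -1.23 in NS).

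At week 8 many members differed between the replicate numbers in the same direction in IUGR and NS. Of the 33 members, 22 (66.7%) had both replicate 2 libraries above both replicate 1 libraries, against 36.1% of all genes, and 7 (21.2%) had both below, against 37.6%. The 7 are Nes, Vim, Pax6, Fabp7, Hopx, Gli3 and Sox11. The 22 include 5 of the 6 intermediate progenitor genes and 6 of the 8 differentiation factors. The others are the patterning factors Nr2e1, Nr2f1, Nr2f2, Emx1, Emx2, Lhx2 and Gli1, and Sox1, Sox21, Prom1 and Ptprz1 of radial glia. The mean ratio of replicate 2 over replicate 1 was 5.37 for Neurod2, 4.26 for Neurod1, 3.79 for Bcl11a, 3.41 for Insm1 and 2.69 for Lhx2, and 0.453 for Hopx, 0.413 for Pax6 and 0.139 for Fabp7. Neuron markers moved with the higher genes (replicate 2: 10101 and 10496 CPM in IUGR and NS, replicate 1: 3852 and 3426 CPM). Much of that rise was Camk2a (4854 and 5325 CPM in replicate 2 of IUGR and NS, against 761.5 and 681.7 CPM in replicate 1). Syt1 moved less (1237 and 1298 CPM in replicate 2 of IUGR and NS, against 1148 and 980.9 CPM in replicate 1). The hippocampus markers include the members Neurod6 and Prox1. Their sum was also higher in replicate 2 (881.9 and 928.2 CPM in IUGR and NS, against 435.7 and 566.9 CPM in replicate 1). Zbtb20 and Spink8 of that list were lower in replicate 2 of both groups, and Neurod6 and Meis2 overlapped. Zbtb20 stood at 15.8 and 18.6 CPM in replicate 2 of IUGR and NS, against 45.9 and 72.3 CPM in replicate 1. The ependyma markers, 7 of 8 of which were found, moved with the lower genes (22.8 and 25.7 CPM in replicate 2 of IUGR and NS, against 75.8 and 83.8 CPM in replicate 1), as did the 12 meninges markers (725.9 and 564.8 CPM in replicate 2 of IUGR and NS, against 1216 and 2572 CPM in replicate 1). The 8 oligodendrocyte precursor markers summed higher in replicate 2 (387.4 and 477.2 CPM in IUGR and NS, against 182.4 and 241.0 in replicate 1). So did the 12 interneuron markers (750.2 and 830.0 CPM in IUGR and NS, against 609.0 and 592.6 CPM in replicate 1). Of the interneuron markers, Gad1, Sst, Lhx6, Dlx1, Dlx2, Dlx5 and Nkx2-1 were higher in replicate 2 of both groups. Vip, Dlx6os1 and Adarb2 were lower in replicate 2 of both groups, and Gad2 and Npy overlapped. Vip stood at 21.7 and 17.2 CPM in replicate 2 of IUGR and NS, against 48.3 and 31.2 CPM in replicate 1. None of these markers was at 0 in all libraries of an age. Their part in the split was not tested.

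**Figure D3:**
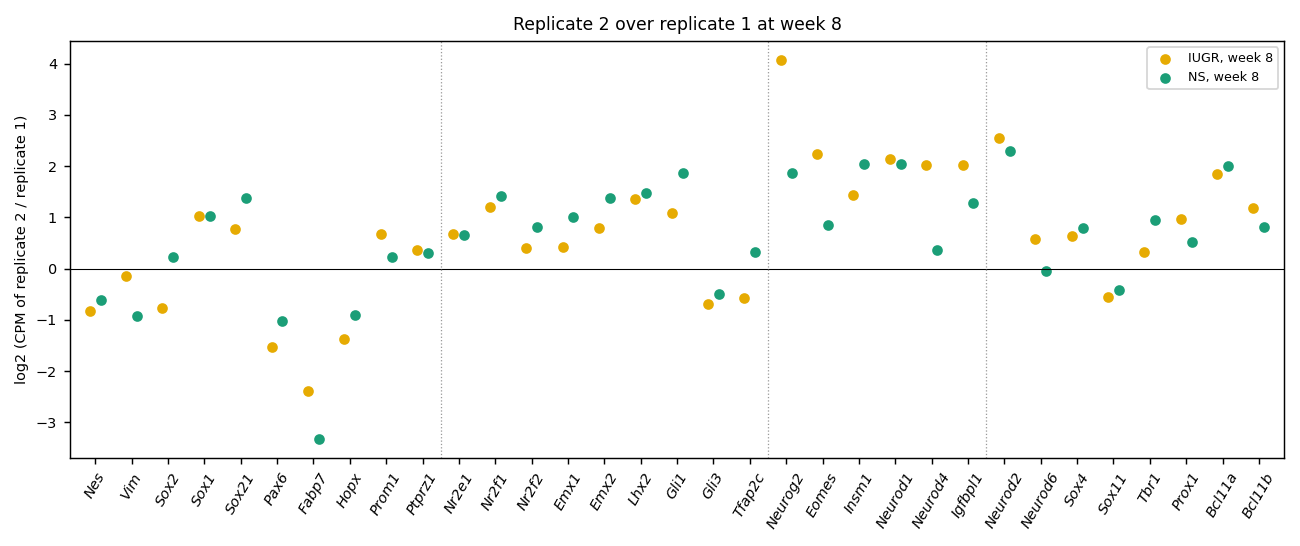
Log2 ratio of the CPM in replicate 2 over that in replicate 1 at week 8, for the 33 genes in IUGR and in NS, with dotted lines between the 4 roles. Points of IUGR and NS lie on the same side of 0 for most genes, and reach 4.08 for Neurog2 in IUGR at the top and -3.32 for Fabp7 in NS at the bottom.

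The comparison of ages was therefore repeated with the week 8 libraries of 1 replicate number alone. Each week 8 group then has 1 library and is assumed to vary like the others. The spread comes from the postnatal day 3 pairs, which varied less (common biological coefficient of variation 0.154, against 0.498 at week 8). The counts and adjusted p-values of these fits are thus likely too favourable, for members and for all genes. With replicate 2 alone, 6 members were higher and 12 lower in IUGR, against 28.2% and 27.8% of genes (56% in all), and 8 higher and 11 lower in NS, against 28.7% and 29.2% (57.8% in all). With replicate 1 alone, 1 was higher and 17 lower in IUGR, against 21.4% and 20% of genes (41.4% in all), and 1 higher and 15 lower in NS, against 18.7% and 19.2% (37.9% in all). In all of these, 10 members were lower in both groups: the 8 called in both groups with all libraries, and Eomes and Ptprz1. No member was higher in all. With replicate 2 alone, Emx2, Lhx2, Neurod1, Neurod2 and Prox1 were higher in both groups, Neurod2 by 2.23 in IUGR (adjusted p = 0.000362) and 2.18 in NS (adjusted p = 0.000387). With replicate 1 alone, Hopx was higher in both groups (1.97 in IUGR and 1.6 in NS) and Neurod2 had log2 fold changes of -0.31 in IUGR and -0.14 in NS. For Neurod1 the direction in NS turned with the library, at 1.03 on the log2 scale with replicate 2 alone (adjusted p = 0.0028) and -1.02 with replicate 1 alone (adjusted p = 0.0149). Bcl11a in NS gave 0.61 (adjusted p = 0.0389) and -1.40 (adjusted p = 0.00429), and Bcl11b in IUGR 0.53 (adjusted p = 0.042) and -0.64 (adjusted p = 0.0365).

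The comparison of IUGR with NS addresses the question of the study, and no member was called at either age. At week 8, 0 of 33 members passed edgeR's adjusted p under 0.05, against 0% of all genes, with 12 fold changes above and 21 below 0 and a median of -0.08 on the log2 scale, against 0.02 over all genes. At postnatal day 3, 0 of 33 passed, against 0% of all genes, with 18 above and 15 below 0 and a median of 0.01, against 0.01 over all genes. At an unadjusted p under 0.05 there was 1 member at week 8 (Tfap2c) and 0 at postnatal day 3, against 1.01% and 0.6% of all genes. DESeq2 and limma voom on all libraries also called 0 members at each age, with 0 at an unadjusted p under 0.05. On week 8 alone, DESeq2 called 0 members and 1 gene (0.00511%) and edgeR none of either. With replicate 2 alone at week 8, 0 members and 2 genes (0.0122%) were called there. The SEs of the members' fold changes ran from 0.25 to 1.13 at week 8 and from 0.25 to 1.09 at postnatal day 3.

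Tfap2c had the largest difference at week 8, 0.203 and 0.137 CPM in IUGR against 0.460 and 0.579 CPM in NS. The groups did not overlap, and the log2 fold change was -1.51 ± 0.62 (adjusted p = 1). The ratio of summed reads was 0.321 (5 reads in IUGR and 17 in NS, 95% exact interval 0.0925 to 0.905, counting error only). Eomes was the only other member whose groups did not overlap at week 8, with 0.203 and 0.960 CPM in IUGR against 0.998 and 1.79 CPM in NS and a log2 fold change of -1.19 ± 0.79. The 2 members make 6.06% of 33, against 13.1% of all genes whose groups did not overlap at week 8. Among other members, Igfbpl1 had -0.39 ± 0.67, Insm1 -0.47 ± 0.74 and Sox21 -0.89 ± 0.59, while Neurog2 had 0.59 ± 1.13 and Neurod1 0.39 ± 0.81.

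At postnatal day 3, 4 members had IUGR and NS libraries that did not overlap (12.1%), against 36.3% of all genes. Pax6 stood at 20.4 and 18.4 CPM in IUGR against 16.6 and 15.0 CPM in NS, and Sox4 at 178.5 and 153.5 CPM in IUGR against 132.1 and 142.3 CPM in NS, both higher in IUGR. Nr2e1 stood at 8.84 and 7.55 CPM in IUGR against 11.6 and 9.71 CPM in NS, and Lhx2 at 36.8 and 27.6 CPM in IUGR against 40.7 and 37.8 CPM in NS, both lower in IUGR. The log2 fold changes were 0.30 ± 0.53 for Pax6, 0.28 ± 0.34 for Sox4, -0.38 ± 0.36 for Nr2e1 and -0.29 ± 0.59 for Lhx2, each with an adjusted p of 1. The 4 libraries of postnatal day 3 varied less than those of week 8, with a common biological coefficient of variation of 0.154 against 0.498 at week 8. In a fit of postnatal day 3 alone the SEs of the members lay between 0.12 and 0.49, and still 0 members passed in edgeR (1 at an unadjusted p under 0.05, Sox4, at 0.27 ± 0.12 with adjusted p = 0.869) or in DESeq2 (60 genes called, 0.363%). The largest absolute change of a member there was 0.41. Without both replicate 2 libraries of postnatal day 3, each group of that age has 1 library and the spread comes from week 8 alone, so the absence of calls there (0 of 33 members) says nothing of stability. The fold changes then ran from -1.39 (Nr2f2) to 0.73 (Tbr1).

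**Figure D4:**
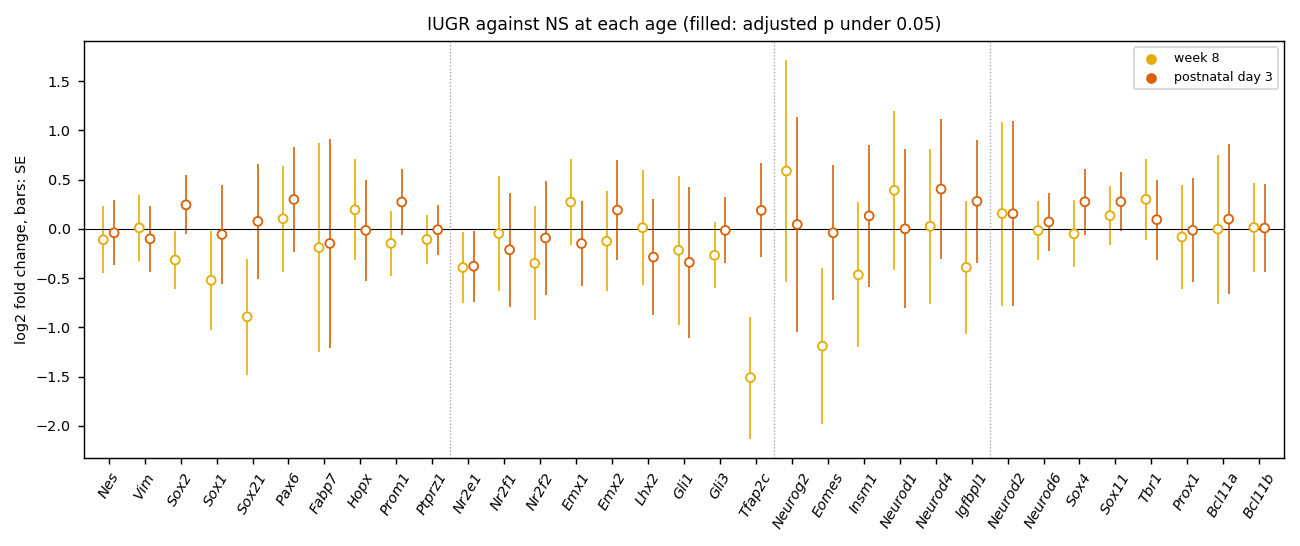
Log2 fold change of IUGR over NS for the 33 genes at week 8 and at postnatal day 3, with bars of 1 SE, and dotted lines between the 4 roles. All points are open (no adjusted p under 0.05), and the lowest are Tfap2c and Eomes at week 8.

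The IUGR effect did not differ detectably between ages for any member. The test of that difference (week 8 minus postnatal day 3) called 0 of 33 members, against 0% of all genes, with 0 members and 82 genes (0.513%) at an unadjusted p under 0.05. It called 0 members and 2 genes (0.0122%) with replicate 2 alone at week 8. The members' differences ran from -1.70 (Tfap2c, SE 0.78) to 0.54 (Neurog2, SE 1.57), with a median of -0.10 against 0.01 over all genes. The other lists also held 0 called genes between IUGR and NS at either age: 20 proliferation genes, 29 each of radial glia and of progenitors or immature neurons, and 25 projection neuron factors. Markers of other tissues differed in level between the libraries. All 12 markers of meninges and fibroblasts had fold changes below 0 at both ages. Their sums at postnatal day 3 were 509.5 to 572.5 CPM in IUGR and 1143 to 1363 CPM in NS. At week 8 replicate 1 held 1216 CPM in IUGR and 2572 CPM in NS. Replicate 2 of week 8 held 725.9 CPM in IUGR and 564.8 CPM in NS. In that replicate 2 pair Ptgds, Dcn, Ogn, Lum, Aldh1a2 and Igf2 had a higher CPM in IUGR and the other markers a lower one. The week 8 direction of those higher markers thus came from the replicate 1 pair. Choroid plexus markers reached 6774 CPM in NS replicate 1 of week 8 and 6314 CPM in NS replicate 2 of postnatal day 3, the other NS libraries holding 86.1 and 90.0 CPM and the 4 IUGR libraries 68.5 to 3246 CPM. Markers of endothelium and mural cells summed to 95.6 to 120.5 CPM in IUGR and 175.4 to 206.3 CPM in NS at week 8, and to 109.9 to 117.6 CPM in IUGR and 153.1 to 160.5 CPM in NS at postnatal day 3. Of these 10 markers, 9 had fold changes below 0 at each age, 0 were called, and 6 had an unadjusted p under 0.05 at week 8 and 0 at postnatal day 3. No marker of these 3 lists was at 0 in all libraries of an age, and their part in the members' values was not tested.

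Within postnatal day 3, the libraries of a group differed for several regional genes. Nr2f2 stood at 21.4 and 76.0 CPM in IUGR, against 56.4 and 46.9 CPM in NS, and Prox1 at 10.8 and 27.6 CPM in IUGR against 23.4 and 15.3 CPM in NS. Both had the library order of the summed thalamus and habenula markers, which were 196.6 and 508.3 CPM in IUGR and 301.7 and 224.9 CPM in NS. Tbr1, at 66.6 and 44.8 CPM in IUGR and 40.2 and 64.3 CPM in NS, had the order of the neocortex markers, which summed to 522.5 and 357.0 CPM in IUGR and 304.6 and 457.6 CPM in NS. In all, 3 members followed each order: Nr2f2, Neurod4 and Prox1 that of thalamus and habenula (9.09%, against 5.91% of all genes), and Sox11, Tbr1 and Bcl11a that of neocortex (9.09%, against 4.36%). These orders were read after the values were seen. The replicate 2 libraries of postnatal day 3, against the replicate 1 libraries, had 14 members lower in both groups (42.4%, against 14.3% of all genes), among them Eomes, Insm1 and Igfbpl1, and 1 higher (Nr2f1, against 18.8%). Both replicate 2 libraries are those that went against their male label, so replicate number and that mismatch cannot be told apart.

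Per kilobase of the deposited gene length, levels (RPKM, CPM per kilobase) can be compared between genes. At week 8 the highest means were Fabp7 with 86.3 ± 83.0 RPKM in IUGR and 104.5 ± 120.8 RPKM in NS, Neurod6 with 76.9 ± 21.4 RPKM in IUGR and 82.1 ± 2.18 RPKM in NS, Hopx with 63.6 ± 39.9 RPKM in IUGR and 58.8 ± 25.3 RPKM in NS, and Neurod2 with 47.9 ± 47.9 RPKM in IUGR and 45.1 ± 42.2 RPKM in NS (SD, n = 2 each). At postnatal day 3 the order was Fabp7 with 3191 RPKM in IUGR and 3533 RPKM in NS, Neurod6 with 210.8 RPKM in IUGR and 200.9 RPKM in NS, and Vim with 95.3 RPKM in IUGR and 102.1 RPKM in NS. Sox11, Ptprz1 and Sox4 followed in IUGR, and Ptprz1, Sox11 and Sox4 in NS. Sox11 went down the order, at rank 20 in IUGR and 22 in NS at week 8 against 4 and 5 at postnatal day 3, and Neurod2 went up, at rank 4 against 12 in both groups. Of the 32 neighbouring pairs in each order, none at week 8 were farther apart than the sum of their SDs, against 5 in IUGR and 6 in NS at postnatal day 3, where Fabp7, Neurod6 and Vim each stood clear of the next. The lowest were Tfap2c at week 8 (0.0554 RPKM in IUGR and 0.169 RPKM in NS) and Gli1 at postnatal day 3 (0.489 RPKM in IUGR and 0.621 RPKM in NS).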

How the data were processed

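RNA of 8 hippocampus libraries was sequenced in paired ends after removal of ribosomal RNA, per the labels' protocols. The authors deposited raw read counts per gene, 1 table for each age, and a normalized signal that equals the counts divided by 1 size factor per library, which was only checked. Build mm10 and the tools featureCounts 1.6.1, HISAT2 2.1.0, DESeq2 1.26.0, cutadapt 1.16 and SAMtools 1.9 are listed, per the submitters' processing notes, without roles. Annotation release, strand setting and handling of multiply matching reads were not given in the sources used, so values of genes that overlap an antisense gene or share sequence with a paralogue are uncertain. The deposited tables also give the gene length used for levels per kilobase. Columns were matched to samples by the labels (0 columns left out).

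Genes with enough counts (filterByExpr, 15999 of 24421) were tested with edgeR 4.0.16 in R 4.3.3 (TMM scaling, quasi-likelihood F test, 4 group means, all 8 libraries), with Benjamini-Hochberg adjustment over all genes tested. The SE is the fold change divided by the square root of F. The procedure was also run on simulated counts. These lacked the week 8 split by replicate number shared by IUGR and NS, so they say nothing of its behaviour under that split. DESeq2 1.42.0, limma 3.58.1 (voom), other scalings and filters, fits on each age or treatment alone, a replicate block and omitted libraries were alternatives. Intervals of summed read ratios are exact conditional binomial intervals. Libraries of the same group differed well beyond counting noise (chi-square per degree of freedom 16 to 318). Gene positions come from the GENCODE annotation of GRCm38, the build mm10 names, and promoters and start sites from RefSeq.

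All 33 members are described. Of the other lists, up to 3 genes per list and direction with the smallest p are named, with Mki67 and Top2a always given. The members and all lists were chosen with earlier results of these data known, so their calls are not independent evidence.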

Additional observations from a re-analysis of the deposited data

How the results depend on the processing

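Between IUGR and NS, every alternative run left 0 members called at both ages and in the difference between ages, and the counts over all genes stayed at 0 except where stated. DESeq2 on postnatal day 3 alone called 60 genes, and 13 with the replicate block, and on week 8 alone 1 gene, and 3 with the replicate block. Without both replicate 1 libraries of week 8, 2 genes were called at week 8 and 2 in the difference. Leaving out each library in turn gave 0 to 0.

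For week 8 against postnatal day 3, 2691 genes were called in IUGR and 2263 in NS. DESeq2 called 4384 and 3926. Fits of that treatment alone called 1497 in IUGR and 310 in NS, with 3 members left in NS, in edgeR. Without both replicate 1 libraries of week 8 the counts were 9221 in IUGR and 9520 in NS (18 and 19 members), without both replicate 2 libraries of week 8 they were 6778 and 6201 (18 and 16 members), and without both replicate 2 libraries of postnatal day 3, where the spread comes from week 8 alone, they were 0 in both (0 members). Leaving out each library in turn gave 92 to 4069 genes and 1 to 10 members in IUGR, and 51 to 3801 genes and 1 to 7 members in NS. With 1 replicate number of week 8 left out, the spread comes from postnatal day 3, which varied less, so those higher counts are likely too favourable. Other scalings, filters, the fold minimum and limma voom kept the counts of genes and members within 1.5 times.

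With the replicate number as a block, 8061 genes and 20 members were called in IUGR and 7667 genes and 16 members in NS. The labels do not say that a number marks a shared litter, batch or day. The differences between replicates of IUGR and NS correlated over genes at 0.862 at week 8 and at -0.0816 at postnatal day 3.

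Called directions that turned were those of Neurod1 in NS (-1.02 without both replicate 2 libraries of week 8), Bcl11a in NS (0.61 without both replicate 1 libraries of week 8) and Bcl11b in IUGR (-0.64 without both replicate 2 libraries of week 8). The cause of these changes was not tested. Depth limits Tfap2c, Eomes, Neurog2 and Neurod4, which had few reads in single week 8 libraries.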
